A study of Sus scrofa with 9 samples.

Results

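Ribosomal protein genes encode the proteins of the cytoplasmic ribosome, and 36 of them were measured here in 3 sorted T cell fractions of sow blood. They were chosen by name: a probe belonged to the set when its transcript accession led to a pig symbol of the RPL or RPS series or to RPLP0, RPLP1, RPLP2 or RPSA, which leaves out the RPS6K kinases. The rule found 186 probes among 6730 probes that could be named and 43603 on the array, and 36 genes among 3052 named ones. The pig annotation holds 82 symbols of this form, and the other 46, among them RPS6, RPLP1, RPL4, RPL26, RPS27 and the paralogue RPL22L1, had no named probe and were not analysed here. Of the 36 genes, 20 belong to the large subunit and 16 to the small subunit. Each gene was represented by its probe with the highest mean signal, and its other probes, up to 18 for RPL5, are described separately.

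Peripheral blood mononuclear cells of sows, adult female pigs, were sorted on CD3, CD4 and CD8 into CD3+CD4+CD8+ cells (here the double-positive or DP fraction), CD3+CD4+ cells (the CD4 fraction) and CD3+CD8+ cells (the CD8 fraction). Each fraction was hybridised to 3 one-colour Agilent arrays after whole-transcriptome amplification of its total RNA. The study compared the DP fraction with each of the other fractions. No treatment, breed, age or number of sows was given in the sources used here, so the p-values measure the spread between these samples, which the design text calls biological replicates.

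Ribosomes join amino acids in the order set by messenger RNA. Their large subunit carries out peptide bond formation, with an acidic stalk (RPLP0, RPLP1 and RPLP2) that recruits elongation factors, and their small subunit decodes the message. The messages of ribosomal proteins are abundant in nearly every cell, and most start with a terminal oligopyrimidine tract through which their translation is tied to growth signalling. In T cells, ribosome production rises when a resting cell is activated. RPL5 and RPL11 also bind MDM2 outside the ribosome, and RPL22 has a known role in T cell development in mice.

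The fractions carried their sorting markers. CD4 stood at levels of 2.78, 2.54 and 1.09 in DP, 2.35, 1.92 and 1.47 in CD4 and -3.27, -0.79 and -2.06 in CD8, where a level is the log2 signal of a probe relative to the 75th percentile of its array. CD8A stood at 4.32, 2.84 and 3.26 in DP, 0.29, 0.94 and -0.40 in CD4 and 5.81, 5.53 and 4.72 in CD8. The 75th percentile itself ranged from 15.2 to 84.1 signal units between arrays, and 32.6% to 53.7% of probes were well above background on an array. The arrays lay on 3 slides: DP array 1 alone on slide 1, DP array 2, CD4 array 2 and CD8 arrays 1 and 2 on slide 2, and DP array 3, CD4 arrays 1 and 3 and CD8 array 3 on slide 3.

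All 36 genes were well expressed in every fraction. Of their 186 probes, 183 were well above background on all 9 arrays, against 25.6% of all probes on the array, and all 186 passed the filter for testing. The exceptions were 1 RPS10 probe, above background on 6 arrays, and 1 probe each of RPL32 and RPL7 that had an unusable spot on CD8 array 1 and were above background on the other 8. Mean levels over the 9 arrays ran from 3.22 for RPL7L1 to 9.69 for RPLP2, with a median of 7.66. Probes differ in how strongly they bind, so these levels do not order the genes. Many ribosomal protein genes have processed copies elsewhere in the genome, and signal from a gene and from such a copy could not be told apart on these probes.

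Ribosomal protein genes were lowest in the DP fraction and highest in the CD8 fraction, but no single gene passed the test in any comparison. Expressed as the distance of each gene from its own 9-array mean, the median gene stood at 0.01, -0.48 and -0.48 (log2) on the 3 DP arrays, at -0.28, 0.26 and -0.15 on the CD4 arrays and at 0.34, 0.76 and 0.03 on the CD8 arrays. The means of these array medians were -0.32 ± 0.28 (SD, n = 3) in DP, -0.06 ± 0.28 (SD, n = 3) in CD4 and 0.38 ± 0.37 (SD, n = 3) in CD8. Every CD8 array stood above every DP array by this measure, while the CD4 arrays overlapped both. CD8 array 2 was the highest, and CD8 array 3 lay just above DP array 1. The mean levels followed the order DP, CD4, CD8 from low to high for 32 of the 36 genes, an order seen for 21.0% of all 16024 tested probes.

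**Figure D1:**
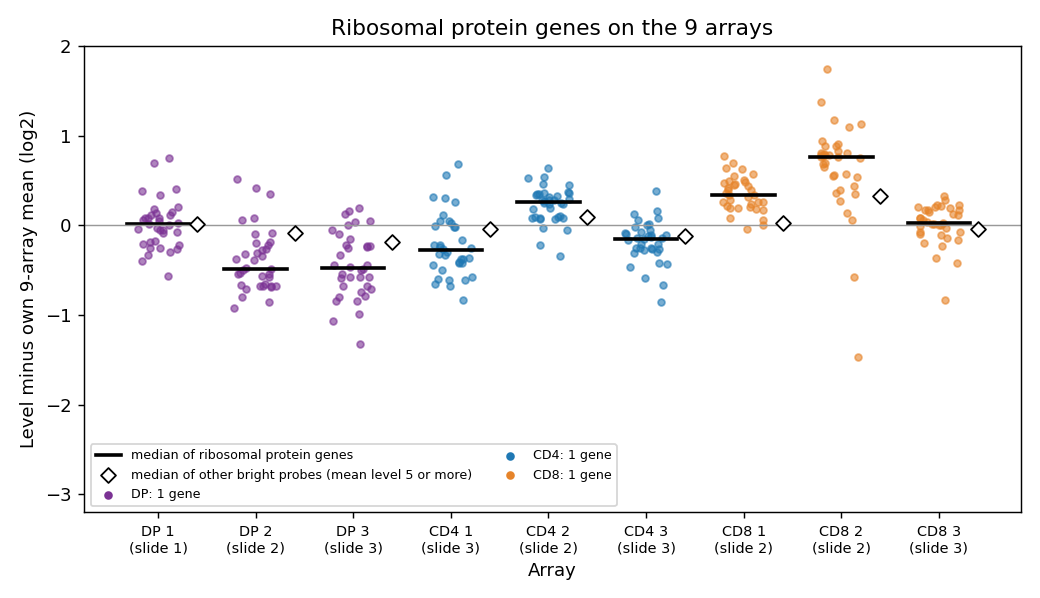
Distance of each of the 36 ribosomal protein genes (points) from its own 9-array mean, on the log2 scale, on each array with its slide; horizontal bars are medians of the 36 genes and diamonds are medians of the 1046 other bright probes. The DP medians lie between -0.48 and 0.01 and the CD8 medians between 0.03 and 0.76, with CD8 array 2 the highest.

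Most of the genes were highest, or lowest, on the same few arrays. CD8 array 2 held the highest value of 27 genes, CD8 array 1 of 7 and DP array 1 of 2. The lowest value fell on DP array 3 for 16 genes, DP array 2 for 11, CD4 array 1 for 5, CD8 array 2 for 2 and CD4 array 3 and CD8 array 3 for 1 each. On CD4 array 2, 32 of the genes stood above their own mean, while on CD4 arrays 1 and 3 only 9 and 6 did. The median gene had an SD of 0.47 over the 9 arrays, against 0.45 for other bright probes and 0.62 for all tested probes.

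Other bright probes shared part of this pattern. They were the 1046 tested probes outside the set with a mean level of 5 or more, a reference chosen after the values were seen. Only 244 of them could be named, so some may belong to ribosomal protein genes that had no named probe. The array medians of the 1046 probes were 0.02, -0.09 and -0.18 in DP, -0.04, 0.09 and -0.11 in CD4 and 0.03, 0.32 and -0.04 in CD8. CD8 array 2 was thus the highest for bright probes as well, at 0.32 against 0.76 for the ribosomal protein genes. All tested probes had a median of 0.14 on that array. What the array's general shift contributed to the ribosomal protein values was not tested.

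In DP against CD8 cells, the widest of the comparisons, 34 of the 36 genes had a lower mean in DP. So did 52.3% of all tested probes and 75.6% of the other bright probes. The median difference was -0.66 on the log2 scale, or 1.58-fold, with a median of -0.03 over all tested probes and -0.18 over the other bright probes. The differences ran from -1.01 for RPL22 to 0.37 for RPL3. None of the 36 genes passed limma's test at an adjusted p of 0.05, a threshold that 0.312% of all tested probes passed. The smallest limma adjusted p was 0.531, for RPL14. At an unadjusted p under 0.05 stood 12 genes, all lower in DP, against 6.52% of all tested probes in either direction and 3.51% lower in DP: RPL5, RPL7, RPL11, RPL14, RPL22, RPL23, RPL32, RPS3, RPS16, RPS20, RPS21 and RPS23. For 22 genes every DP value lay below every CD8 value, which held for 5.2% of all tested probes. These genes share arrays and vary together, so their number is not a count of independent observations.

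The count of 12 depended on single arrays and on the processing. With all arrays kept it was 0 after normexp background correction, 2 after quantile normalisation, 2 in the authors' deposited table, 2 without a variance trend and 4 without a filter on dim probes. It was 0 without CD8 array 2, 1 without DP array 2, 2 without CD8 array 1, 3 without DP array 3, 4 without CD4 array 3, 8 without CD4 array 2 and 19 without CD8 array 3. With arrays left out in turn, the median difference between DP and CD8 stayed below 0, between -0.80 and -0.51. Within slide 2 it was -0.96 with 35 genes lower, and within slide 3 it was -0.57 with 33 genes lower. Quantile normalisation between arrays moved it to -0.34, normexp background correction to -0.39 and the authors' deposited table to -0.32, with 33, 32 and 33 genes lower.

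Differences between DP and CD4 cells were smaller. The mean in DP was lower for 33 genes and higher for 3. It was lower for 52.3% of all tested probes and 58.0% of the other bright probes. The genes had a median difference of -0.26 (1.2-fold) and a range from -0.55 for RPL22 to 0.27 for RPL7L1. The median over all tested probes was -0.02 and over the other bright probes -0.06. By limma none of the 36 genes passed the adjusted p, which 0.293% of tested probes did, and 0 reached an unadjusted p under 0.05, which 4.84% of tested probes reached. The groups did not overlap for 2 genes, RPL14 and RPL22, both lower in DP, against 4.89% of all tested probes. Without CD4 array 2 the median of the genes was -0.09 and that of all tested probes -0.08, and without DP array 3 it was -0.13. It was -0.12 after quantile normalisation and in the authors' deposited table. Within slide 2 it was -0.69 and within slide 3 it was -0.28.

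Between CD4 and CD8 cells 34 genes had a lower mean in CD4, as did 51.2% of all tested probes and 72.6% of the other bright probes. The median difference of the genes was -0.43 (1.34-fold), against -0.01 over all tested probes and -0.15 over the other bright probes. Differences ran from -0.73 for RPL13A to 0.36 for RPL3. By limma 0 of the 36 genes passed the adjusted p, which 0.437% of tested probes did, and 0 reached an unadjusted p under 0.05, against 4.54%. For 6 genes, RPL14, RPS12, RPS15, RPS18, RPS21 and RPS23, every CD4 value lay below every CD8 value, which held for 4.24% of all tested probes. That count uses the brightest probe of each gene, and the second RPS15 probe gave a difference of 0.26, against -0.45 for the brightest. The median was -0.27 within slide 2 and -0.22 within slide 3, and -0.27 without CD8 array 2. It was -0.17 after normexp background correction, -0.23 after quantile normalisation and -0.22 in the authors' deposited table. limma's F test over the 3 fractions called none of the 36 genes, against 0.612% of tested probes, and 1 gene had an unadjusted p under 0.05 in it, against 6.18%.

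**Figure D2:**
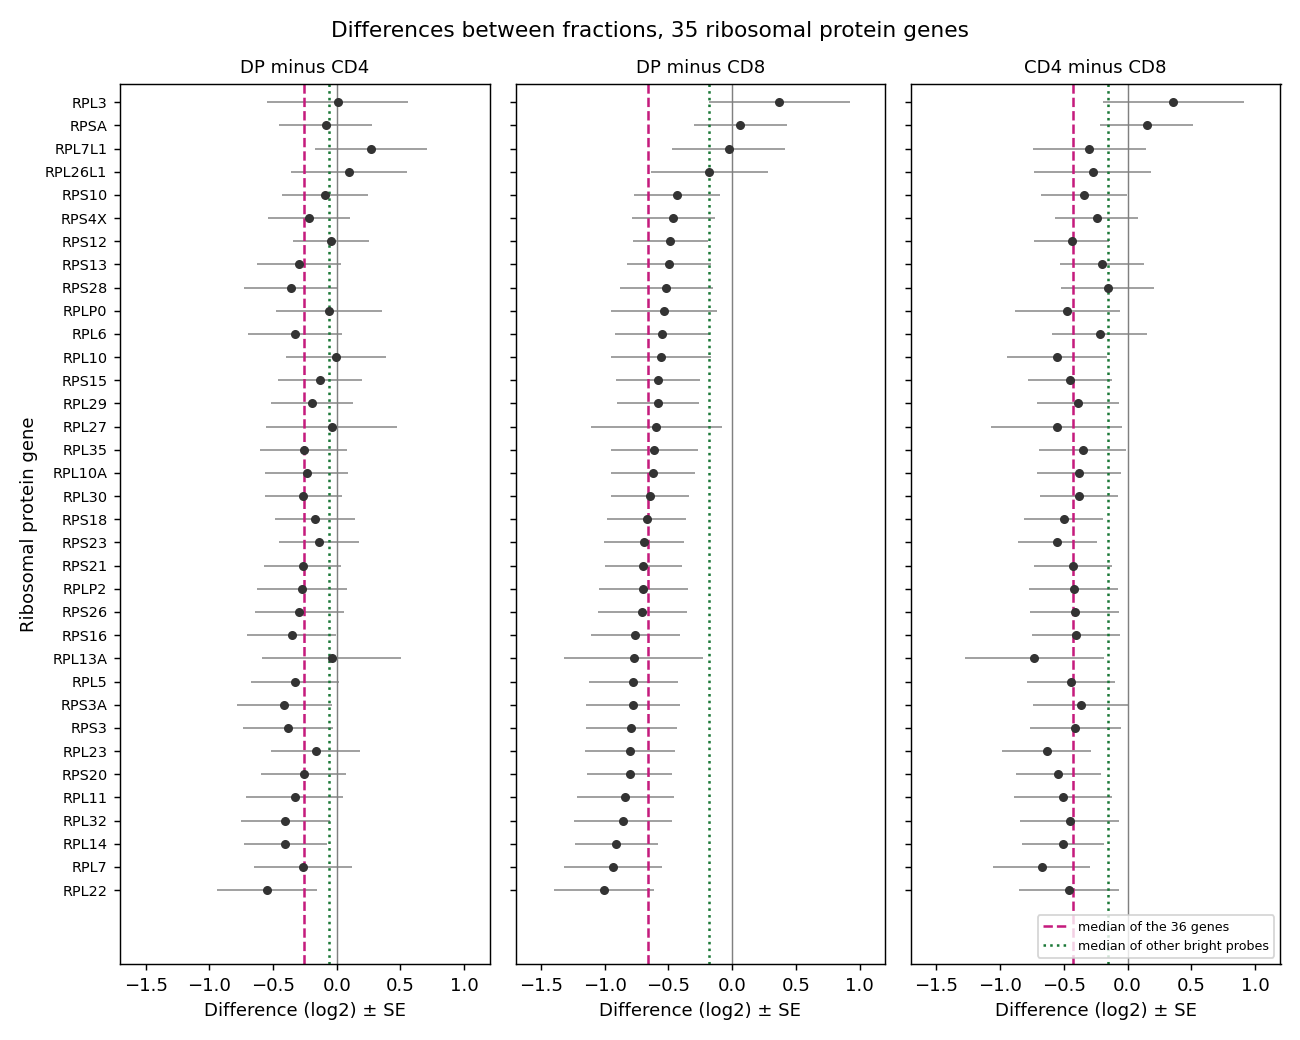
Difference between 2 fractions for 35 of the 36 ribosomal protein genes on the log2 scale, with its limma standard error, for DP minus CD4, DP minus CD8 and CD4 minus CD8; dashed lines are medians of the 36 genes and dotted lines medians of the other bright probes. The gene medians are -0.26, -0.66 and -0.43, and RPL3 and RPSA stand to the right of 0 in both comparisons with CD8.

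Genes of the large and the small subunit had like values. The median differences of large-subunit genes were -0.25, -0.63 and -0.45 for DP against CD4, DP against CD8 and CD4 against CD8, and those of small-subunit genes were -0.26, -0.68 and -0.41. Standard errors of single differences ran from 0.30 to 0.55, so most differences between DP and CD4 were smaller than their own error. In bulk samples such as these, fewer cells with high expression and less RNA per cell cannot be told apart.

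Among the stalk genes, RPLP2, a small acidic protein at the stalk's tip, stood at 9.36, 9.15 and 9.60 in DP, 9.10, 10.02 and 9.82 in CD4 and 9.70, 10.58 and 9.92 in CD8. Every DP value lay below every CD8 value, by 0.70 on average (SE 0.35, limma adjusted p = 0.828). RPLP0, the stalk's base, stood at 7.50, 7.47 and 6.68 in DP, 7.19, 7.70 and 6.95 in CD4 and 7.48, 8.59 and 7.19 in CD8. Its 4 slide 3 values, 6.68 to 7.19, all lay below its values on the other slides, 7.47 to 8.59. Its fractions overlapped: only CD8 array 2 stood above all the others, and the difference between DP and CD8 was -0.54 (SE 0.41, limma adjusted p = 0.992). It was -0.12 without that array and -0.27 without DP array 3, and that of RPLP2 was -0.44 without CD8 array 2.

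RPL5 and RPL11 bind the 5S ribosomal RNA together in the large subunit. RPL5 stood at 8.31, 7.82 and 8.26 in DP, 8.13, 8.86 and 8.41 in CD4 and 8.78, 9.45 and 8.50 in CD8. Its DP values all lay below its CD8 values, with a difference of -0.78 (SE 0.35, limma adjusted p = 0.743). RPL11 stood at 6.66, 6.20 and 5.75 in DP, 6.64, 6.68 and 6.29 in CD4 and 6.98, 7.69 and 6.45 in CD8. Here DP array 1 lay above CD8 array 3, so the fractions overlapped although the difference of -0.84 (SE 0.38, limma adjusted p = 0.757) was slightly wider than that of RPL5. Without CD8 array 2 the difference was -0.51 for each of these genes.

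RPL22, an RNA-binding protein of the large subunit, had the widest difference between DP and CD8. It stood at 6.57, 6.06 and 6.04 in DP, 6.58, 6.93 and 6.81 in CD4 and 6.92, 8.11 and 6.67 in CD8. All DP values lay below all values of both other fractions, though DP array 1 and CD4 array 1 nearly touched. DP was 2.01-fold lower than CD8, a difference of -1.01 (SE 0.39, limma adjusted p = 0.624), and the CD8 mean rested in part on CD8 array 2, the highest by far. Without that array the difference was -0.57. The difference between DP and CD4 was -0.55 (SE 0.39).

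RPL14, another protein of the large subunit, was the only gene whose 3 fractions were fully separated on its brightest probe. It stood at 5.41, 5.10 and 5.17 in DP, 5.45, 5.87 and 5.58 in CD4 and 6.0, 6.55 and 5.87 in CD8. The DP, CD4 and CD8 means were 5.23 ± 0.16, 5.63 ± 0.21 and 6.14 ± 0.36 (SD, n = 3 each), although the highest CD4 and lowest CD8 values nearly touched. The differences were -0.40 (SE 0.32) from CD4 and -0.91 (SE 0.32, limma adjusted p = 0.531) from CD8. None of the gene's other probes separated all 3 fractions. An RPL23 probe other than that gene's brightest did, with DP values up to 7.97, CD4 values from 8.02 to 8.24 and CD8 values from 8.36.

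RPL7, an RNA-binding protein of the large subunit, stood at 7.04, 6.64 and 7.44 in DP, 6.83, 7.71 and 7.37 in CD4 and 7.92, 8.57 and 7.44 in CD8. The DP and CD8 values touched, at 7.44 on array 3 of both fractions, both on slide 3. The mean difference was -0.94 (SE 0.38, limma adjusted p = 0.667). RPL23, a large-subunit protein that, like RPL5 and RPL11, can bind MDM2, stood at 9.22, 8.39 and 8.62 in DP, 8.65, 9.43 and 8.64 in CD4 and 9.56, 9.84 and 9.23 in CD8. Its DP arrays 2 and 3 and its CD4 arrays 1 and 3 formed the low end, and it differed by -0.80 (SE 0.35, limma adjusted p = 0.727) between DP and CD8 and by -0.64 (SE 0.35) between CD4 and CD8.

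RPL13A, known also for holding back translation of inflammatory messages when released from the ribosome, varied widely. It stood at 5.13, 5.92 and 4.33 in DP, 5.71, 5.05 and 4.73 in CD4 and 5.36, 7.14 and 5.20 in CD8. All fractions overlapped, CD8 array 2 held by far the highest value, and the difference between CD4 and CD8 was -0.73 (SE 0.55) with that array and -0.11 without it. RPL27 stood at 5.62, 5.62 and 3.95 in DP, 5.83, 5.06 and 4.42 in CD4 and 5.69, 6.18 and 5.11 in CD8. It was low on the DP and CD4 arrays numbered 3, and its difference of -0.56 (SE 0.51) between CD4 and CD8 was about as wide as its error and was -0.21 without CD4 array 3.

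RPL32 stood at 8.44, 7.78 and 7.64 in DP, 8.58, 8.42 and 8.07 in CD4 and 9.13 and 8.49 on CD8 arrays 2 and 3, its spot on CD8 array 1 being left out. Its difference between DP and CD8, -0.86 (SE 0.39, limma adjusted p = 0.755), thus rests on 2 CD8 values. RPL10, which completes the large subunit late in its assembly, stood at 7.55, 7.13 and 7.27 in DP, 6.93, 7.82 and 7.21 in CD4 and 8.27, 8.27 and 7.08 in CD8. CD8 arrays 1 and 2 were high and CD8 array 3 was below every DP array, and the DP and CD4 means were nearly equal. The difference between DP and CD8 was -0.56 (SE 0.39), and -0.36 without either of the high CD8 arrays.

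RPL3, a core protein near the peptidyl transferase centre, ran the other way. It stood at 6.28, 5.94 and 4.74 in DP, 6.21, 5.61 and 5.11 in CD4 and 6.07, 4.06 and 5.72 in CD8. Its lowest value was on CD8 array 2, the array on which 27 other members peaked, and all fractions overlapped. Its difference of 0.37 (SE 0.55) between DP and CD8 became -0.24 without that array, and only 1 probe of the gene was named.

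The remaining large-subunit paralogues differed little. RPL7L1, a relative of RPL7 with a role in ribosome assembly, stood at 3.91, 2.64 and 3.35 in DP, 2.89, 3.58 and 2.63 in CD4 and 3.85, 3.28 and 2.86 in CD8. No fraction stood apart, and its differences of 0.27 (SE 0.44) from CD4 and -0.03 (SE 0.44) from CD8 were within their errors. RPL26L1, a close relative of RPL26, stood at 5.79, 5.29 and 5.66 in DP, 4.95, 6.15 and 5.35 in CD4 and 6.11, 6.39 and 4.77 in CD8. Its 4 slide 2 values ran from 5.29 to 6.39 and its 4 slide 3 values from 4.77 to 5.66, and the fractions overlapped throughout. For both genes the sign of the difference between DP and CD8 changed under other normalisations, to 0.22 for RPL7L1 and 0.09 for RPL26L1 after normexp background correction.

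The other large-subunit genes (RPL6, RPL10A, RPL29, RPL30 and RPL35) were all lower in DP than in CD8, by between 0.55 for RPL6 and 0.64 for RPL30 on the log2 scale. For RPL10A, RPL29, RPL30 and RPL35 the DP and CD8 values did not overlap. RPL30, with values of 7.67, 7.46 and 7.14 in DP, 7.77, 7.82 and 7.46 in CD4 and 8.12, 8.28 and 7.81 in CD8, was among the least variable of them. Its CD4 values lay between the others and overlapped each. The 3 RPL29 probes differed unevenly between DP and CD8, from -0.58 on the brightest to -0.07, with a median of -0.12.

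In the small subunit, RPS3A stood at 9.29, 8.91 and 9.36 in DP, 8.90, 10.22 and 9.67 in CD4 and 9.92, 10.36 and 9.62 in CD8. Its DP values lay below its CD8 values, and CD4 array 1 was as low as the lowest DP array. The difference between DP and CD8 was -0.78 (SE 0.37, limma adjusted p = 0.787).

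RPS4X, the X-linked form of RPS4, stood at 8.02, 7.41 and 8.12 in DP, 7.76, 8.37 and 8.08 in CD4 and 8.28, 8.52 and 8.14 in CD8. DP array 2 was the lowest, and the highest DP and lowest CD8 values nearly touched. Its difference between DP and CD8 was -0.46 (SE 0.32), and -0.24 without DP array 2. RPSA, which also acts at the cell surface as a laminin receptor, stood at 5.83, 5.33 and 5.09 in DP, 5.42, 5.77 and 5.32 in CD4 and 5.86, 4.85 and 5.35 in CD8. Like RPL3 it was lowest on CD8 array 2, and its differences of -0.09, 0.06 and 0.15 in the 3 comparisons (SE 0.36 each) were all within their errors.

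The 5 small-subunit genes with an unadjusted p under 0.05 between DP and CD8 were chosen after their values were seen. RPS20, a protein of the small subunit's head, stood at 8.80, 8.08 and 8.24 in DP, 8.30, 9.01 and 8.58 in CD4 and 8.93 to 9.51 in CD8, a difference of -0.80 (SE 0.33, limma adjusted p = 0.676). RPS3, at the entry of the messenger RNA channel, differed by -0.79 (SE 0.36), RPS16 by -0.76 (SE 0.35), RPS21 by -0.70 (SE 0.31) and RPS23, near the decoding site, by -0.69 (SE 0.31). In each of these 5 genes the DP values lay below the CD8 values. RPS18 had the tightest DP values of the set, at 7.09, 7.0 and 7.09, below CD8 values of 7.53, 8.14 and 7.52, with CD4 at 6.97, 7.44 and 7.29. RPS10, RPS12, RPS13, RPS15, RPS26 and RPS28 were lower in DP than in CD8 by between 0.43 for RPS10 and 0.71 for RPS26 on the log2 scale.

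Probes of the same gene gave mostly the same direction. In DP against CD8 177 of the 186 probes were lower in DP, with a median of -0.65. By limma 0 were called and 49 had an unadjusted p under 0.05. Over all tested probes these shares were 52.3%, 0.312% and 6.52%. In DP against CD4 170 probes were lower in DP, against 52.3% of all tested probes. In CD4 against CD8 169 were lower in CD4, against 51.2%. Of the other bright probes, 75.6% were lower in DP than in CD8, 58.0% lower in DP than in CD4 and 72.6% lower in CD4 than in CD8. Of the 31 genes with several probes, 26 had all of them lower in DP than in CD8 and 5 were mixed. All 18 probes of RPL5, all 14 of RPL7, all 14 of RPS4X and all 13 of RPL6 were lower in DP than in CD8, and also lower in DP than in CD4. The median gap between the highest and lowest probe of a gene was 0.39 in DP against CD8. Probes of a gene share the same RNA, so they repeat the hybridisation and not the sample.

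Some probes departed from the rest of their gene on 1 array. An RPL5 probe read -0.94 on DP array 2 and between 3.45 and 6.27 on the other 8 arrays, and its difference of -2.82 between DP and CD8 (limma adjusted p = 0.596) compares with -1.04 to -0.71 for the gene's other probes. An RPS3A probe read 1.31 on DP array 2 and between 6.66 and 9.12 elsewhere, with a difference of -3.00 (limma adjusted p = 0.664) against -0.96 to -0.67 for the gene's other probes. Both were well above background on all 9 arrays. They were the only 2 of the 186 probes at least 2 below the next lowest array, a gap seen for 2.17% of all tested probes, and neither represents its gene above.

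On CD8 array 2, where most members peaked, some probes were instead low. An RPL10 probe read 3.39 there and between 4.57 and 5.97 elsewhere, so its difference between DP and CD8 was 0.62 while the gene's brightest probe gave -0.56. A dim RPLP0 probe read 0.43 there and between 0.98 and 1.93 elsewhere. For RPSA the 6 probes were split: 3 had their lowest value on that array, at 4.85, 4.0 and 4.6, and the other 3 read 4.84, 4.59 and 3.37 there. RPL10 and RPLP0 were the genes whose probes disagreed in sign by 1 or more on the log2 scale in DP against CD8 and in CD4 against CD8, and RPL7 in CD4 against CD8 only.

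Slide 3 set apart a few probes. One RPL7 probe read between 6.14 and 6.71 on the 4 arrays of slide 3 and between 3.64 and 4.96 on the others measured. A second RPL7 probe read between 6.20 and 6.78 on slide 3 and between 4.56 and 5.99 on the others, with its spot on CD8 array 1 left out. In all, 2 of the 186 member probes were higher on every slide 3 array than on every other array and 4 were lower. Over all tested probes the shares were 3.33% and 2.56%, so the members were set apart no more often than other probes. Among the 4 lower probes was the brightest RPLP0 probe, which represents that gene above. Slide 3 held 1 DP, 2 CD4 and 1 CD8 array, so for these probes slide and fraction overlap in part.

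**Figure D3:**
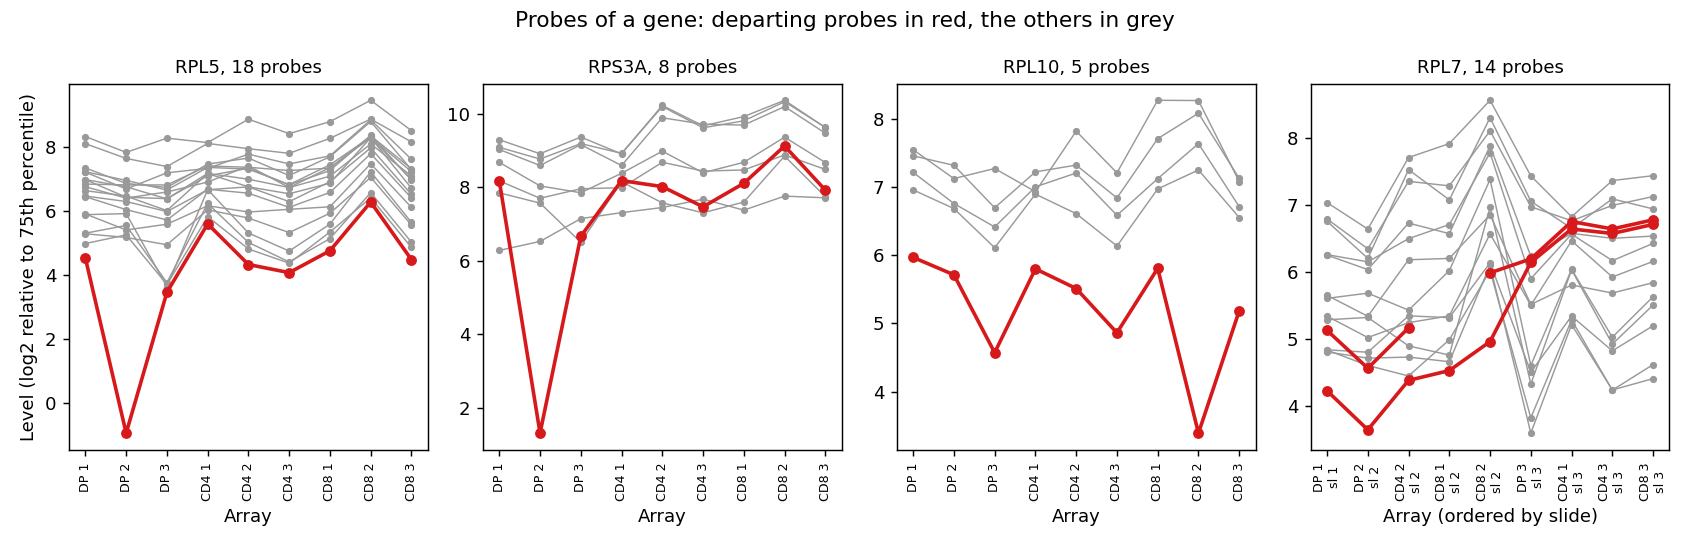
Level of every probe of RPL5, RPS3A, RPL10 and RPL7 on the 9 arrays, as log2 signal relative to the array's 75th percentile, with departing probes in red and the others in grey; vertical scales differ between panels, the RPL7 panel is ordered by slide (sl), and its gap is a spot left out. The red RPL5 probe falls to -0.94 and the red RPS3A probe to 1.31 on DP array 2, and the red RPL10 probe to 3.39 on CD8 array 2.

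Among other genes of the translation machinery, limma called none of those tested in any comparison. Both named elongation genes were lower in DP than in CD8: EEF1A1, which delivers aminoacyl-tRNA to the ribosome, by 0.70 and EEF1E1, a scaffold protein of the aminoacyl-tRNA synthetase complex, by 0.92 on the log2 scale. The 10 initiation genes had a median of -0.15 in that comparison, with 6 lower in DP. Of 5 ribosome biogenesis genes 4 were lower in DP than in CD8, with a median of -0.41. The mitochondrial ribosomal proteins, which serve a separate ribosome, had a median of -0.28 over 6 tested genes, 5 lower in DP.

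Markers of other blood cells also differed between fractions. CD79A, a B cell receptor component, stood at 0.48, -1.50 and 0.86 in DP, -0.10, -0.04 and 0.64 in CD4 and 3.50, 2.39 and 3.56 in CD8. It was lower in DP than in CD8 by 3.20 on the log2 scale (limma adjusted p = 0.0452). It was the only one of 4 named B cell genes that could be tested. BLNK was above background on no array. The mean level of the 4 genes ran from -1.79 to -0.22 on CD8 arrays, from -3.80 to -1.56 on DP arrays and from -3.24 to -1.92 on CD4 arrays. Of 7 named monocyte and granulocyte genes limma called none of the 2 tested, and CD163, S100A8 and S100A9 were above background on no array. Among the CD8 arrays CD79A was lowest on array 2. Of 4 named NK cell genes, 2 were tested. KLRK1, an activating receptor of NK cells and of many cytotoxic T cells, stood at 3.00, 0.69 and 2.98 in DP, -2.70, -3.11 and -3.14 in CD4 and 4.31, 3.24 and 2.63 in CD8. It was lower in CD4 than in CD8 by 6.38 (limma adjusted p = 0.000985) and higher in DP than in CD4 by 5.21 (limma adjusted p = 0.00589) on the log2 scale. Its lowest fraction was CD4. FCGR3A, an Fc receptor, had mean levels of 5.87 in DP, 3.06 in CD4 and 5.14 in CD8. It differed by -2.09 between CD4 and CD8 (limma adjusted p = 0.206) and by 2.81 between DP and CD4 (limma adjusted p = 0.0509). NCR1 was above background on no array. The mean level of the 4 genes ran from -0.26 to 0.36 on DP arrays, from -2.10 to -1.02 on CD4 arrays and from -0.12 to 1.67 on CD8 arrays. Of 4 platelet genes limma called none of the 3 tested. The part of RNA from other cells in the ribosomal protein values was not tested.

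The direction of the median difference held under each setting tried. Over all settings it ran from -0.39 to -0.09 in DP against CD4, from -0.80 to -0.32 in DP against CD8 and from -0.58 to -0.17 in CD4 against CD8, outside the values within slides given above. The plot of medians by setting shows that values after quantile normalisation or in the deposited table lay nearest to 0 for DP against CD8. The number of genes passing limma's adjusted p was 0 in every setting.

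**Figure D4:**
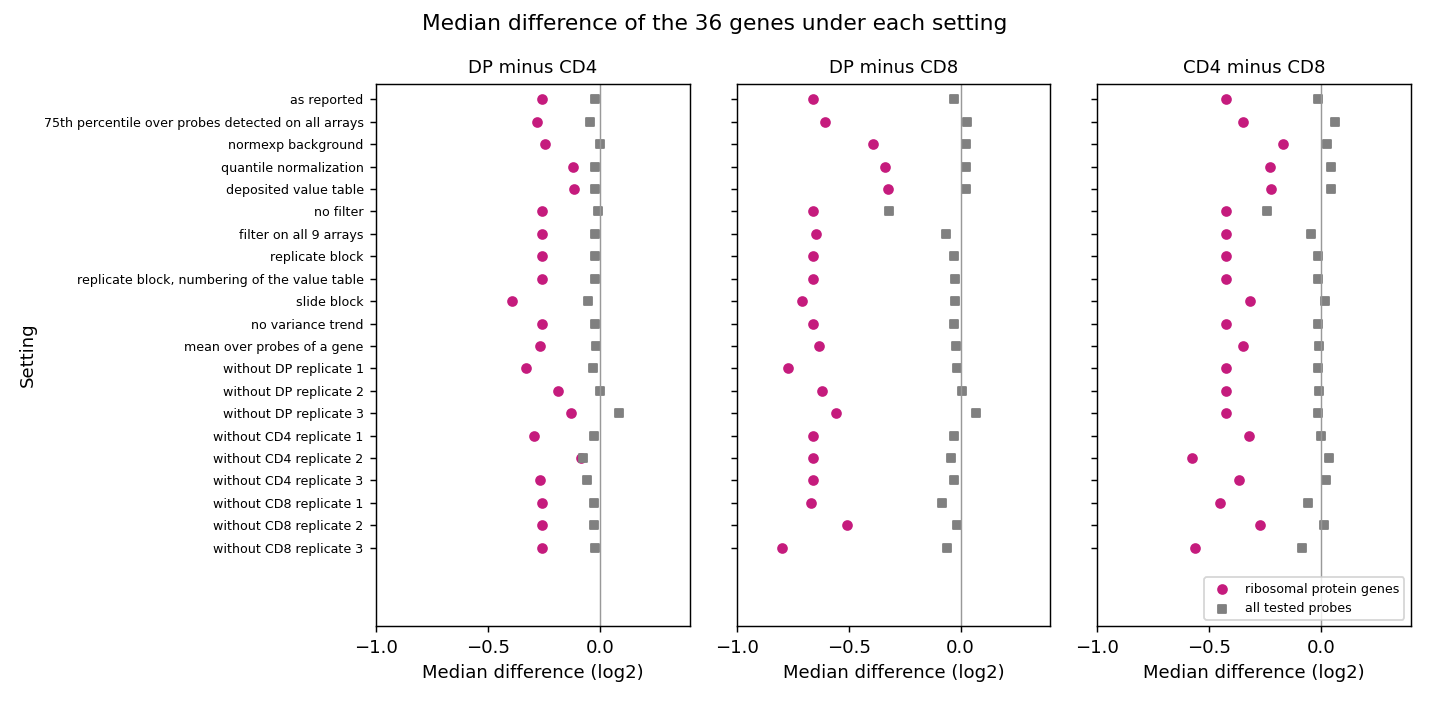
Median difference on the log2 scale of the ribosomal protein genes (circles) and of all tested probes (squares) under each processing setting, for the 3 comparisons. The circles stay left of 0 in every setting, between -0.80 and -0.32 for DP minus CD8.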

How the data were processed

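Total RNA of 9 sorted samples was hybridised to one-colour porcine arrays. The deposited scanner files hold processed signal, an intensity that the authors obtained with Agilent Feature Extraction 11.0.1.1, per the file headers and the submitters' processing notes. It is background-subtracted and not normalized between arrays. The deposited value table holds log2 values with the same median, 2.60, in every column; the program that made them was not given in the sources used here. Against the scanner files, its CD8 columns 1, 2 and 3 followed CD8 arrays 3, 1 and 2, so it served as an alternative only.

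Flagged spots (1 to 12 an array) were left out, spots of a probe averaged, and each array's 75th percentile subtracted on the log2 scale. Of 43603 probes, 16024 were tested, those that every array of some fraction showed well above background and that kept at least 2 values in each fraction. limma 3.58.1 (R 4.3.3, lmFit and eBayes with a trend, two-sided) was fitted to all 9 arrays and Benjamini-Hochberg adjusted over all tested probes, threshold 0.05. It was tested on simulated data. Probes were named by transcript accession through the RefSeq table of Sscrofa11.1. The normexp alternative (offset 50) used median signals.

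The members and gene lists were chosen with earlier results of these data known. Named with values were, by rule, the 4 genes with the largest difference each way in a comparison, stalk genes, RPSA, paralogue pairs, RPL5, RPL11, and genes with missing or disagreeing probes. Alternatives covered scaling, background, filter, blocks, variance trend, probe choice and each array left out. The number of arrays limits the precision. Probe sequences were not used here, and a few genes that entered the counts and medians are not reported here by name.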

Additional observations from a re-analysis of the deposited data

How the results depend on the processing

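No ribosomal protein gene passed limma's adjusted p of 0.05 in any comparison or in the F test under any alternative. The smallest adjusted p over the alternatives was 0.921 in DP against CD4, 0.308 in DP against CD8 and 0.452 in CD4 against CD8. The median difference kept its sign, with arrays left out in turn between -0.33 and -0.09, between -0.80 and -0.51, and between -0.58 and -0.27 in these comparisons. It moved beyond the spread between arrays in DP against CD4 within slide 2, to -0.69, and in DP against CD8 in the deposited table, to -0.32; the cause was not tested.

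Same-numbered arrays were checked for pairing. Of 9 same-numbered pairs 7 had correlated deviations over 0.1 (range -0.07 to 0.65). Since not every pair passed that level, the numbers were not taken as a pairing. Of 18 best matches in another fraction, 13 were to the own number, a hint from the data and not from the design. All arrays numbered 2 lay on slide 2 and all numbered 3 on slide 3, so for them number and slide cannot be told apart. With the replicate block the medians were -0.26, -0.66 and -0.43, 0 genes were called, and 14 in place of 12 had an unadjusted p under 0.05 in DP against CD8 (4 with the value table's numbering). Over the whole array the block gave 144, 83 and 110 calls in place of 47, 50 and 70. With the value table's numbering of CD8, chosen after the data were seen, the block gave 30, 21 and 50. The slide block gave 2, 2 and 38, normexp 1, 7 and 6, no filter 109, 87 and 97, and a filter on all 9 arrays 12, 5 and 12. In DP against CD8 the deposited table gave 24 and the percentile over probes detected on all arrays 22. Leaving out an array gave 2 to 54, 1 to 51 and 31 to 83, the lowest without DP array 1, DP array 1 and CD8 array 2.

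These signs turned. In DP against CD4, RPL10 became 0.033 with normexp, 0.12 with quantile normalisation and 0.12 in the deposited table, RPLP0 0.051 and 0.049 in the last pair, RPL26L1 -0.14, RPL3 -0.32 and RPL7L1 -0.094 with the slide block, and RPL3 -0.0146 with the percentile over detected probes. In DP against CD8, RPL7L1 became 0.026, 0.22, 0.0349, 0.037 and 0.19 with the detected-probe percentile, normexp, quantile normalisation, the deposited table and the mean over probes, RPL26L1 0.086 with normexp, and RPSA -0.11 with the slide block and -0.025 with the mean over probes. In CD4 against CD8, RPL26L1 became 0.0043 with normexp and RPL32 0.10 in the deposited table. With arrays left out in turn, DP against CD4 ranged from -0.20 to 0.24 for RPL10, -0.17 to 0.43 for RPL26L1, -0.30 to 0.47 for RPL3, -0.0339 to 0.60 for RPL7L1, -0.23 to 0.21 for RPLP0, -0.37 to 0.00260 for RPS4X and -0.29 to 0.078 for RPSA. DP against CD8 ranged from -0.67 to 0.14 for RPL26L1, -0.24 to 0.83 for RPL3, -0.33 to 0.30 for RPL7L1 and -0.19 to 0.32 for RPSA. CD4 against CD8 ranged from -0.77 to 0.043 for RPL26L1, -0.25 to 0.76 for RPL3 and -0.10 to 0.40 for RPSA.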

Other observations

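Probes that were low on 1 array alone were not peculiar to ribosomal protein genes. Of all tested probes, 347 were at least 2 on the log2 scale below their next lowest array, 123 of them on CD8 array 2 and 6 each on CD4 arrays 2 and 3, where the fewest fell. Probes at least 4 below the next lowest were most frequent on DP array 2, with 12.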
